A study of Mus musculus with 24 samples.

Results

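Antibody T and antibody U, a pair of antibodies against the transcription factor SOX10, were compared in the mouse melanoma line Kmt2d mutant 493. Antibody T was Bethyl A305-799A-T and antibody U was CST 69661. Both libraries came from that line, so they share its Kmt2d mutation, and the medium was DMEM/F12 to which FBS (10%) and Penicillin-Streptomycin (1%) had been added. The members are the 2 libraries of the line whose labels name SOX10, a rule that uses no measured value. They were 2 of 24 samples of the series, or 2 of 22 with a peak list (12 mutant, 10 WT). The T list held 1163 peaks and the U list 6358, 7521 of the 197727 peaks of the series. The WT line had no SOX10 list among those analysed here, and 493 is 1 line, so nothing below compares genotypes. The signal of the IgG control of each line was not analysed here.

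SOX10 is an HMG-box factor that binds short sequences of the ACAAAG and ACAATG type and bends the DNA. It specifies neural crest and is needed for the melanocyte and Schwann cell lineages that derive from it. In melanocytes it acts with the factors PAX3 and MITF on pigment genes such as Tyr, and in Schwann cells on myelin genes such as Mbp. In CUT&RUN, an antibody bound to its protein in permeabilised cells recruits a nuclease that cuts the DNA nearby, and the released fragments are sequenced. A second antibody against the same protein reads the same sites through another preparation, with its own affinity and its own off-target binding.

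Most T peaks were also U peaks, and most U peaks had no T peak. Of 1163 T peaks, 973 overlapped a U peak by at least 1 bp (83.7%, 95% Wilson interval 81.4–85.7%), and 190 did not. Of 6358 U peaks, 975 overlapped a T peak (15.3%, 14.5–16.2%), and 5383 did not. Sites with both antibodies lay near Tyr, inside Mitf, Pax3, Ets1 and Sox5, and at the start of the glial connexin gene Gjc3. These genes were picked from lists in which most members had no such site. Within 20 kb it was found for 4 of 22 pigment cell, 3 of 20 Schwann cell and 3 of 22 neural crest genes. Over all protein-coding genes the share was 4.14%. In the same lists 15, 10 and 16 genes had no peak of either antibody in that window. Each antibody had 1 library, so there is no replicate check and no test, and every interval covers counting error only. At a reciprocal overlap of at least 50% the shares were 65.1% of T peaks and 11.9% of U peaks.

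The longer list came from the shallower library. The depth at which the caller worked was rebuilt for each list from the deposited peak values, assuming the caller's default pseudocount of 1 and mouse genome size, and all fragment numbers rest on that. It was 2.20 M fragments (M for mega) for T and 1.34 M for U, 1.64 times as many for T. Before the caller's scaling the T library came to 2.77 M fragments, 2.07 times the U library. The weakest T peak rested on 6 fragments at its summit and the weakest U peak on 3, which is 2.17 and 2.24 fragments per M of the library. The median peak had 13 fragments in the T list and 7 in the U list. After T was thinned to the depth of U, 1091 of its 1163 peaks remained, and 84.7% of them overlapped a U peak.

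Strong U peaks were much more often shared than weak ones. Among U peaks, ranked by fold enrichment and cut into 10 equal bins, 62.2% of the highest bin overlapped a T peak (58.4–65.9%), 28.9% of the second and between 3.62% and 5.03% of each of the lowest 4 bins. T peaks were shared at all strengths, with 85.3% in the highest bin (77.8–90.6%), 94.0% in the third and 62.4% in the lowest (53.4–70.6%). The highest T bin was shared less often than the third, by counts of 99 of 116 and 109 of 116, and their intervals overlap. Of the 100 highest T peaks, 87.0% lay in the whole U list, and of the 100 highest U peaks, 91.0% lay in the whole T list. With lists of equal length, the 1163 highest of each, 550 peaks (47.3%, 44.4–50.2%) were shared. At that length, T overlapped the 1163 highest peaks of UTX in 33.7% of its peaks, of ARID1A in 18.2% and of TFAP2A in 10.1%, all lower than the value for U. Against the whole lists the order differed, since T overlapped ARID1A (25385 peaks) in 88.4% and UTX (9707 peaks) in 84.6% of its peaks, against 83.7% for U (6358 peaks).

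**Figure D1:**
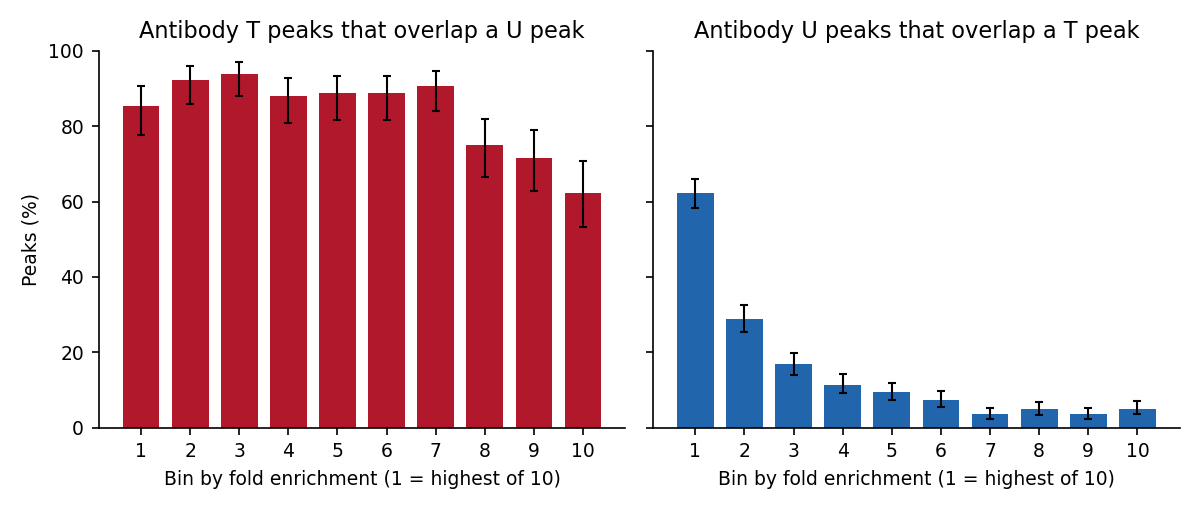
Share of antibody T peaks that overlap a U peak (left) and of antibody U peaks that overlap a T peak (right), in 10 bins of each list ranked by the authors' fold enrichment, with 95% Wilson intervals. T shares stay between 62.4% and 94.0%, while U shares run from 62.2% in the highest bin to 5.03% in the lowest.

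At the 973 shared T peaks, antibody U released more fragments for its depth. The median summit held 13 T fragments and 13 U fragments, equal in number but 4.70 per M in the T library and 9.72 per M in the U library. The T to U ratio per M had a median of 0.483 (quartiles 0.362 to 0.690) over the 970 sites where both could be rebuilt, and U was higher at 881 of them (90.8%). Shared peaks were narrower in the T list, with a median of 259 bp, than in the U list, with 379 bp, and T was the wider at 152 sites (15.6%). Across the 973 sites the fold enrichments of the antibodies had a Spearman correlation of 0.561. This describes pairs of values within 2 libraries of the same cells, and sites are not replicates. U-only peaks had a median of 6 fragments at the summit, 4.49 per M, and T-only peaks a median of 10, or 3.62 per M.

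**Figure D2:**
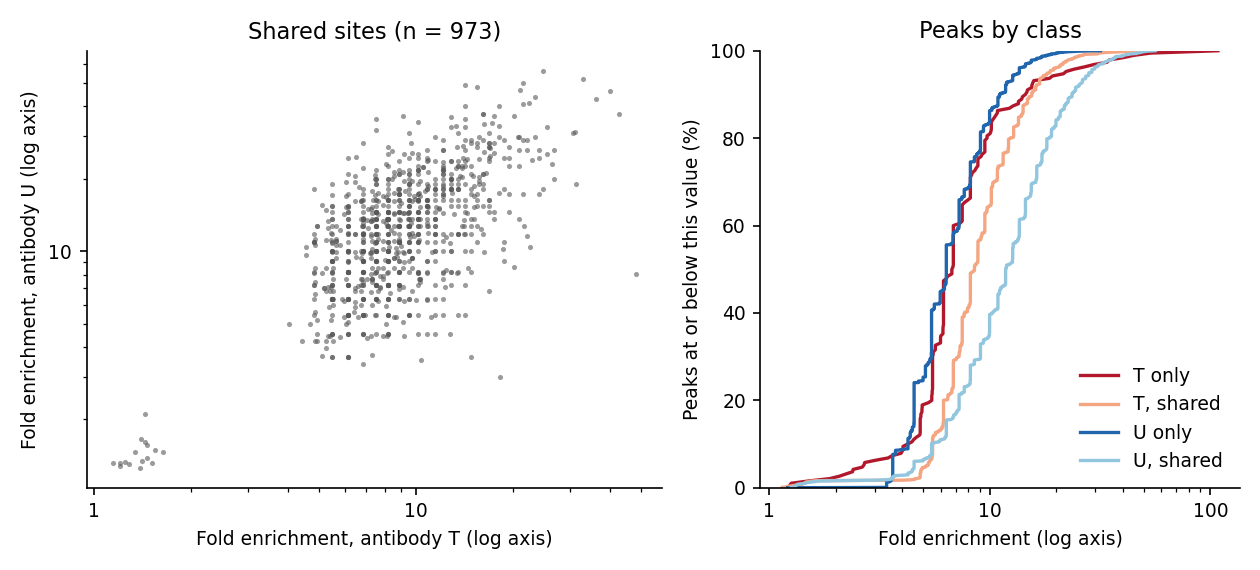
Left, fold enrichment by antibody T against antibody U at the 973 shared sites, both on log axes. Right, cumulative share of peaks by fold enrichment for T-only, shared T, U-only and shared U peaks. Shared peaks lie to the right of single-antibody peaks in both lists (median fold enrichment 6.76 for T-only against 8.52 for shared T, and 6.35 for U-only against 11.8 for shared U), and the T-only curve has the longest upper tail, to 108.

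Shared peaks overlap by definition, so their widths (medians 259 bp for T and 379 bp for U) limit how far apart the summits can lie. No reference distance was computed, and the distances are given as a description. Their median distance was 41 bp (95% interval 37–45 bp), with quartiles of 16 and 85 bp. They were within 50 bp at 56.3% of sites and within 100 bp at 81.2%, on the same base at 28 sites, and more than 200 bp apart at 44 sites. The distance was shorter at stronger sites, with medians of 63, 48, 36 and 27 bp over 4 bins of T fold enrichment, lowest to highest. At gene ends the median was 52 bp (34–72 bp), and at peaks beyond 5 kb from any gene end it was 38 bp inside genes and 43 bp between them.

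**Figure D3:**
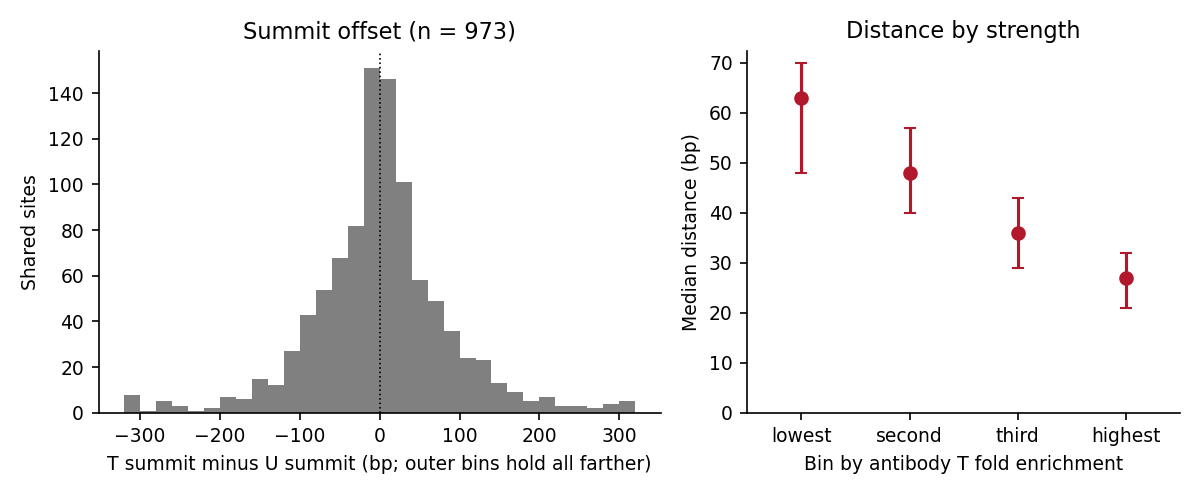
Left, T summit minus U summit in bp at 973 shared sites, in bins of 20 bp with the outer bins holding all farther sites. Right, median distance with its 95% interval in 4 bins of antibody T fold enrichment, from 63 bp in the lowest to 27 bp in the highest.

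Promoter sequences are shown for genes marked by both antibodies. Both antibodies had their summit inside the promoters shown. Fgd4, Mtmr2 and Limch1 had the 3 highest mean ranks of this kind, and Gjc3 is the Schwann cell list gene among them. They hold 2, 1, 1 and 0 matches to the SOX motif and were chosen after their values were seen. Each line gives the 250 bases before the start site, from the RefSeq promoter table (GRCm38.p6), 5′ to 3′ on the gene's strand, and capitals mark ACAAAG or ACAATG on either strand (CTTTGT or CATTGT on the other).
Fgd4: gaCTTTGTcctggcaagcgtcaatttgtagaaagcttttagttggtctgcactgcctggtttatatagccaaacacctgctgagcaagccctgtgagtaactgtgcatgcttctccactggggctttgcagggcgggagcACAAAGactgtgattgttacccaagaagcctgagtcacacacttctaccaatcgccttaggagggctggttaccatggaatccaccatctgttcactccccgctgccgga
Mtmr2: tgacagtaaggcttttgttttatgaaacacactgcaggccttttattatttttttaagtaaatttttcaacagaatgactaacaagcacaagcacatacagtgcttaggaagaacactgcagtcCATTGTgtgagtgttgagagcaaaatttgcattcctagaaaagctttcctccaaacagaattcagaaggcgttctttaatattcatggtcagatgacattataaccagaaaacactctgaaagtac
Limch1: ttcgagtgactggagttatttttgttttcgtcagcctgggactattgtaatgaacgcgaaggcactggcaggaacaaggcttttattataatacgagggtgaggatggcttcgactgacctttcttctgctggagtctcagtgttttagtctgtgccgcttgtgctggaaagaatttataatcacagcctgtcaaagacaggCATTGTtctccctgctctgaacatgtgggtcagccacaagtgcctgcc
Gjc3: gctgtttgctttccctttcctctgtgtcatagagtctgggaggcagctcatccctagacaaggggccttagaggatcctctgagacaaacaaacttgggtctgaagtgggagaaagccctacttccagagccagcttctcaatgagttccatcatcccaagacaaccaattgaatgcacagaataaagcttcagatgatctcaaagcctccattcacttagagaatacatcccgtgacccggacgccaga

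The Fgd4 promoter (chr16:16560220-16560469, minus strand) lies inside the gene, which encodes a guanine nucleotide exchange factor whose human gene is mutated in an inherited neuropathy of peripheral nerve. Both summits fell on 1 base, 132 bases before the start site, in a peak with 26 T fragments and 32 U fragments. It held 2 matches, which begin at bases 3 and 141 of the printed run, and the summits sat at base 119. The Mtmr2 promoter (chr9:13765704-13765953, plus strand), also inside its gene, belongs to a lipid phosphatase gene mutated in another such human neuropathy. Its summits lay 187 (T) and 229 (U) bases before the start site, with 14 T and 27 U fragments and 1 match, and no WT library had a peak there. The Mtmr2 match began at base 125 of the printed run, away from the summits at bases 64 (T) and 22 (U). Limch1 (chr5:66968178-66968427, plus strand), which encodes an actin-associated protein, had summits 177 (T) and 139 (U) bases before its start, with 15 T and 24 U fragments and 1 match. The Limch1 match began at base 203, away from the summits at bases 74 (T) and 112 (U). Gjc3 (chr5:137963099-137963348, minus strand) had summits at 168 (T) and 136 (U) bases, with 7 T and 16 U fragments, and no match in this window.

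Of the 32851 promoters of the table, from 27025 genes, 50 had both summits in these 250 bases. ACAAAG or ACAATG occurred in 18 of these 50 (36.0%, 24.1–49.9%), in 23.3% of the 30 promoters with a T summit and no U peak, in 24.9% of the 385 with a U summit and no T peak, and in 25.2% of all promoters. The interval of the first share contains the share of all promoters. Some of the 50 windows overlap and are not separate sites, while the interval counts each as separate. The windows of Tmprss5 (chr9:49102478-49102727 and chr9:49102529-49102778), for example, hold the same match. GCCNNNGGC, the TFAP2-type motif, searched in the same windows, was in 12.0% of the 50 and in 13.7% of all promoters. Matches of the motifs could share an end base, and a match is no more than those letters in a window. The sequence under peaks away from promoters was not used here.

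Both lists were mainly distal. Within 1 kb of either end of a protein-coding gene, called a gene end here because the gene table gives no strand, lay 14.3% of T peaks (12.4–16.4%) and 11.3% of U peaks (10.5–12.1%), on chromosomes 1 to 19, X and Y. Beyond 5 kb from any gene end lay 76.0% of T and 78.8% of U peaks. Start sites inside a gene were not gene ends, so peaks at the Fgd4 and Mtmr2 promoters above were counted as distal. T-only peaks stood apart, with 33.9% at gene ends (60 of 177, 27.3–41.1%) against 10.7% of shared T peaks (8.89–12.8%). U-only peaks, at 11.4% (10.6–12.2%), were within the interval of shared U peaks, at 10.7% (8.87–12.8%). In other libraries of the line, gene ends took 68.1% of peaks of the promoter mark H3K4me3, 50.5% of TFAP2B and 39.0% of TFAP2A, 17.4% of the H3K27 demethylase UTX, 16.8% of the SWI/SNF subunit ARID1A and 4.10% of the SWI/SNF core subunit SMARCC1.

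**Figure D4:**
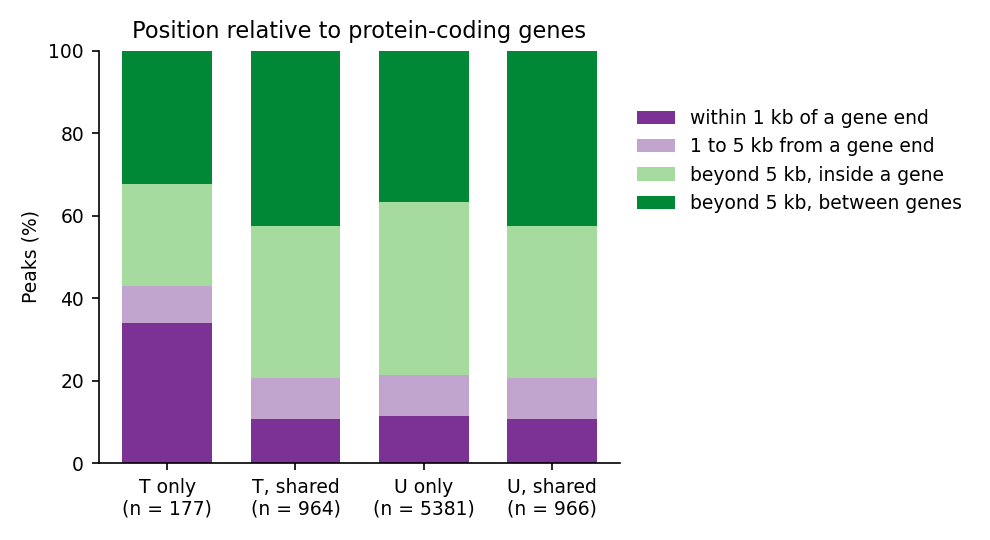
Position of T-only, shared T, U-only and shared U peaks on chromosomes 1 to 19, X and Y, as stacked percentages of each class. The share within 1 kb of a gene end is 33.9% for T-only and 10.7% for shared T peaks, and 11.4% for U-only and 10.7% for shared U peaks.

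Of the 10 highest sites of both antibodies, all but that near Secisbp2l lay beyond 5 kb from any gene end. By mean rank, the first site lay between genes, 67551 bp from Gfra2, which encodes a GDNF-family receptor (chr14:71047111-71047592), with 54 T and 60 U fragments. The next lay inside Gse1, with 59 T and 50 U fragments. The third lay 14806 bp outside Tyr, which encodes tyrosinase, the rate-limiting enzyme of melanin synthesis (chr7:87508160-87508558). It ranked 8 in the T list with 55 fragments and 9 in the U list with 47 fragments, and no WT library had a peak there. The other sites of the first 10 lay inside Acvr1, Padi2, Prkca, Tafa5 and Sap30bp, 4879 bp outside Secisbp2l, and at a second position near Gfra2. The Padi2 site was the highest of the U list (61 fragments) and rank 22 of the T list (36 fragments), with both summits on 1 base.

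The 10 highest T-only peaks had another character. They lay near Samd9l, Cd209a, Cntnap2, Csmd1, Zfp608 and Pex2 and inside Filip1l with Cmss1, Cntnap5b, Jarid2 and Gphn, none at a gene end. All 10 overlapped peaks of BRD9, the bromodomain subunit of non-canonical SWI/SNF, in the same line. These sites were not particular to BRD9, since all 10 also overlapped UTX and TFAP2A there, and 9 overlapped TFAP2B. In the WT line all 10 overlapped KMT2D and UTX peaks, and 9 overlapped BRD9. The highest, 170760 bp from Samd9l, had the top fold enrichment of the T list, 108, and the one near Cd209a had 134 fragments and a fold enrichment of 53.7. The BRD9 list of the line held 90 peaks, of which 48 overlapped a T peak, 22 a U peak and 29 a T peak alone. Of the 17 T-only peaks in the highest of the 10 bins of the T list, 16 overlapped a BRD9 peak of either line. Without such sites 97 of the 98 remaining peaks of that bin were shared (99.0%). That filter was chosen after the data were seen and takes out those 16 unshared peaks, so this share follows from the choice. With BRD9 sites left out of the whole list, 85.8% of T peaks were shared.

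T-only peaks fell into several kinds of site. BRD9 sites made up 33 of the 190, with a median of 107.5 fragments at the summit. The name marks an overlap with a BRD9 peak of either line and no more. Gene ends without BRD9 made up 58, with a median of 9 fragments, of which 56 overlapped H3K4me3 and all 58 overlapped a peak of at least 1 WT library. The most numerous kind was 87 peaks elsewhere in the genome (45.8%), with a median of 9 fragments, of which 78.2% overlapped ARID1A and 19.5% H3K4me3. A further 11 were on the mitochondrial genome, where the U list had 0 peaks and 3 of the other 20 lists had any, at most 6. One kind of shared site was also unlike the rest, since the 28 shared T peaks at BRD9 sites had a median fold enrichment of 1.53 with 199 fragments, against 8.16 with 12 fragments at shared gene ends. These 28 include the 9 shared T peaks on the unplaced contig JH584304.1. The 11 T peaks of that contig had fold enrichments between 1.21 and 4.01. Among T-only gene ends, named after their values were seen, were Oaz1, which encodes the inhibitor of ornithine decarboxylase, with 23 fragments, Cnot3, a subunit of the deadenylase complex, with 15, and Tcf3, a helix-loop-helix factor, with 11.

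U-only peaks were weaker than shared U peaks, with a median fold enrichment of 6.35 against 11.8. They were distal about as often, with 78.6% against 79.4% beyond 5 kb from any gene end. The 10 highest U-only peaks lay inside Col4a1, Cd9, Arhgap15, Il16, Vps45, Cdkl3, Flvcr2 and Pdzd2 and near Opa1 and Abcc12. The first, inside Col4a1, a basement membrane collagen gene (chr8:11290982-11291414), had 34 fragments, rank 31 of the U list. The second, inside Cd9, a tetraspanin gene, had 30. All 10 overlapped UTX and 9 overlapped ARID1A in the same line, 0 overlapped BRD9, and 3 had any WT library. No WT library had a peak at 13.2% of T-only peaks (9.07–18.7%), 34.3% of shared T peaks (31.4–37.4%), 43.3% of U-only peaks (42.0–44.6%) and 33.9% of shared U peaks (31.0–37.0%). None of the 10 other libraries of the mutant line had a peak at 12.1% of T-only, 2.16% of shared T, 16.8% of U-only and 2.05% of shared U peaks.

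Over whole lists, ARID1A and UTX were found more often at sites of both antibodies than at sites of 1, while H3K4me3 and BRD9 were most frequent at T-only peaks. Among the strongest T peaks the order for UTX and H3K4me3 was the other way round. ARID1A overlapped 67.9% of T-only and 92.4% of shared T peaks, and 71.5% of U-only and 92.6% of shared U peaks. UTX overlapped 68.4% of T-only and 87.8% of shared T peaks, and 55.8% of U-only and 87.9% of shared U peaks. The neural crest factor TFAP2A overlapped 63.7% of T-only and 66.5% of shared T peaks, whose intervals overlap, and 45.03% of U-only and 67.2% of shared U peaks. For its relative TFAP2B the shares were 51.6% of T-only and 42.8% of shared T peaks, and 24.1% of U-only and 43.3% of shared U peaks. H3K4me3 overlapped 40% of T-only and 15.9% of shared T peaks, but 16.4% of U-only and 16.1% of shared U peaks. When a SOX10 peak and an H3K4me3 peak each had to cover at least 50% of the other, 2.63% of T-only and 2.87% of shared U peaks qualified. That rule depends on peak width, with a median of 263 bp for T-only and 379 bp for shared U peaks. It therefore cannot compare these classes. SMARCC1 overlapped 12.1% of T-only and 21.6% of shared T peaks, and 10.8% of U-only and 22.5% of shared U peaks. BRD9 overlapped 14.7% of T-only and 2.06% of shared T peaks, and 0.0557% of U-only and 1.95% of shared U peaks. KMT2D of the WT line overlapped 55.8% of T-only and 37.4% of shared T peaks, and 26.2% of U-only and 37.4% of shared U peaks.

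Single-antibody peaks were weaker than shared ones in both lists, so the classes were also set side by side within the highest of 4 bins of each list by fold enrichment. In the T list that bin held 28 T-only and 284 shared peaks. UTX overlapped 28 of the 28 T-only peaks (100%, 87.9–100%) and 91.2% of the shared ones (87.3–94.0%), and H3K4me3 overlapped 7.14% of T-only (1.98–22.6%) and 15.8% of shared peaks (12.1–20.5%), both the reverse of the whole-list order, with intervals that overlap. ARID1A kept its order, at 39.3% of T-only (23.6–57.6%) and 96.1% of shared peaks (93.2–97.8%), and BRD9 overlapped 20 of the 28 T-only (71.4%) and 2 of the 284 shared peaks (0.704%). In the highest bin of the U list, ARID1A overlapped 77.8% of U-only peaks (75.05–80.2%) and 93.1% of shared ones (90.9–94.8%). UTX overlapped 67.7% of U-only and 88.9% of shared peaks, and TFAP2A 49.0% of U-only and 66.6% of shared peaks. H3K4me3 overlapped 7.65% of U-only and 9.69% of shared peaks, with intervals that overlap. Strength and width still differ inside a bin, and their part in these shares was not tested.

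**Figure D5:**
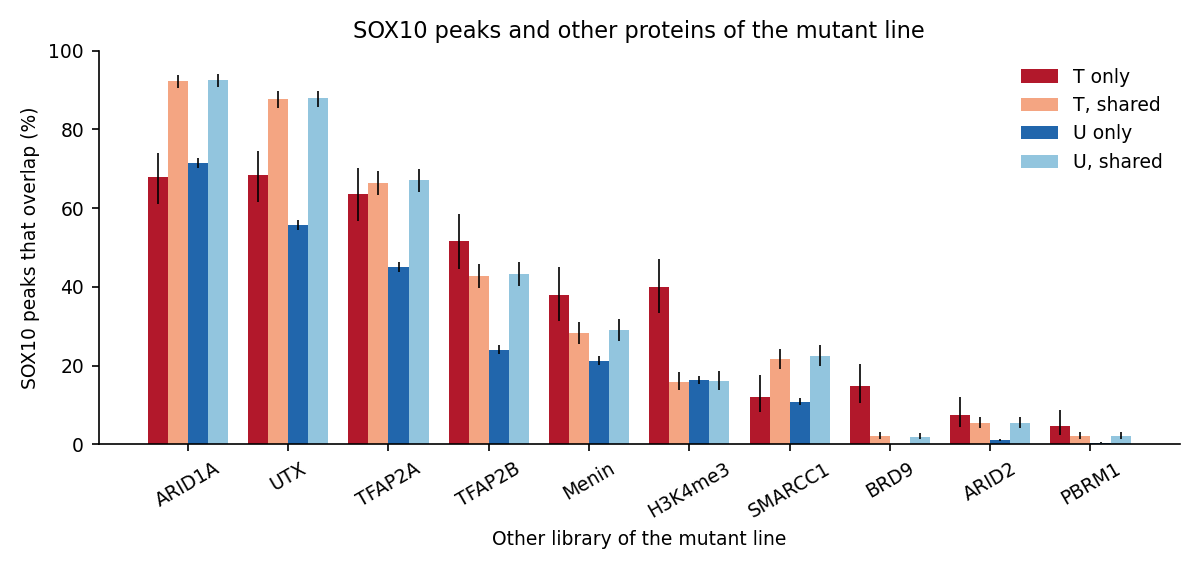
Share of T-only, shared T, U-only and shared U peaks that overlap a peak of each other library of the mutant line, with 95% Wilson intervals. ARID1A and UTX are highest at shared peaks, H3K4me3 (40%) and BRD9 (14.7%) are highest at T-only peaks, and the TFAP2A and TFAP2B shares are lowest at U-only peaks.

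Gene ends of 217 of 21900 protein-coding genes (0.991%) held a T peak, those of 838 (3.83%) a U peak and those of 138 (0.63%) both, leaving 79 (0.361%) with T alone and 700 (3.2%) with U alone. At 126 of the 138 the peaks overlapped, and 113 of the 138 genes (81.9%) had an H3K4me3 peak under the T peak. The first by mean rank was Zc3h14, which encodes a poly(A)-binding protein, with 20 T and 20 U fragments and summits at neighbouring bases. Sf3a1, a splicing factor gene, had 24 T and 21 U fragments, and Elmo2, a regulator of cell migration, had 14 and 22. Car6, Hip1, Sh3tc2, H2bc14, the end between Ino80b and Wbp1, and the end of Catsperz and Esrra followed. Sh3tc2, a gene of Schwann cell myelination, had 13 T and 20 U fragments.

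Of 165 genes in 9 lists, 21 had a T peak within 20 kb (12.7%), 53 a U peak (32.1%), and 19 a site of both antibodies (11.5%). Over all 21900 protein-coding genes the shares were 5.26% for T, 20.6% for U and 4.14% for a site of both, with 4.53% having peaks of both anywhere in the window, 0.731% T alone and 16.1% U alone. The median length was 16.8 kb for list genes and 17.1 kb for all genes. These medians pool the 9 lists, and some genes with a site of both were far longer. Examples are Sox5 (chr6:143828425-144782287) and Nrcam (chr12:44328786-44605194). A longer gene has a wider window, and the counts were not adjusted for length. The lists were chosen with earlier results of these data known, and 1 gene can stand in more than 1 list. Rps19, a ribosomal protein gene, was the 1 list gene with a T peak and no U peak, at a peak that 7 other mutant and 6 WT libraries shared.

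Of 22 pigment cell genes, 5 had a T peak and 7 a U peak within 20 kb. A site of both was found for 4, namely Tyr, Mitf, Pax3 and Mc1r. Over all protein-coding genes the shares were 5.26% for T, 20.6% for U and 4.14% for a site of both. The Mitf site, inside the gene for the melanocyte master regulator, had 13 T and 14 U fragments with both summits on the same base, and 2 more U peaks lay inside Mitf. Pax3 had 9 T and 18 U fragments at 1 site, and the site 15474 bp from Mc1r, the melanocortin receptor gene, had 20 and 21. The Mc1r site lay closer to other genes and carried peaks of 7 WT libraries. Tyrp1, a melanosome enzyme gene, had 1 U peak of 9 fragments, 14351 bp away, and no T peak. None of the 22 had a peak of either antibody at a gene end, where the share over all genes was 0.991% for T and 3.83% for U.

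The Sox10 and Erbb3 loci differed between the antibodies. Around Sox10 itself lay 3 U peaks of 7, 3 and 4 fragments, 2831, 2164 and 1193 bp outside the gene, and no T peak. Erbb3, a neuregulin receptor gene of neural crest lineages, had 2 U peaks inside it with 15 and 12 fragments, and each overlapped 1 other mutant library and no WT library. Its T peak lay elsewhere, 1366 bp outside the gene at the end of a neighbouring gene, with 9 fragments, and overlapped 6 other mutant and 7 WT libraries. The gene counts as having both antibodies within 20 kb, although no site was shared.

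Among 20 Schwann cell and myelin genes, 4 had a T peak, 10 a U peak and 3 a site of both within 20 kb. The shares of all protein-coding genes were 5.26%, 20.6% and 4.14%. Gjc3 had 2 sites of both, with 7 T and 16 U fragments at its start and 20 T and 41 U fragments 3631 bp outside, and no WT library at either. Mbp, which encodes myelin basic protein, had 1 site of both with 17 T and 23 U fragments and 4 more U peaks. Cdh19, a glial cadherin gene, had 7 T and 4 U fragments at a gene end. Pmp22, Mal and S100b had U peaks and no T peak. At gene ends, 2 of the 20 (Gjc3 and Cdh19) had peaks of both antibodies, against 0.63% of all genes.

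Neural crest regulators had 3 of 22 genes with T and 6 with U within 20 kb, and the 3 with T each had a site of both. Over all protein-coding genes the shares were 5.26% for T, 20.6% for U and 4.14% for a site of both. Ets1, an ETS factor gene, had 3 T and 9 U peaks, and its site inside the gene with 20 T and 53 U fragments was rank 4 of the U list and rank 143 of the T list. No WT library had a peak there. Sox5, a SOX factor gene, had 2 T and 12 U peaks, with both summits on 1 base at the site with 17 T and 17 U fragments. By number of U peaks within 20 kb, Aopep had 14 with 0 T peaks, Septin9 had 12 with 4, and Frmd4a 12 with 2, named after their values were seen.

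In the other lists, the members with a T peak within 20 kb ran between 0 of 12 and 5 of 20. Over all protein-coding genes, 5.26% had a T peak in that window, 20.6% a U peak and 4.14% a site of both. Mesenchymal state genes had 2 of 22 with T (Axl, Tead4) and 10 with U, genes of MAPK feedback and output 2 of 16 with T (Etv1, Ier3) and 8 with U. At gene ends 0 of the 16 MAPK genes had a T peak and 4 a U peak (Dusp6, Spry4, Etv5, Phlda1), against 0.991% and 3.83% of all genes. Adhesion and guidance genes had 5 of 20 with T (Nrcam, Sema3c, Nrp1, Nrp2, Cadm1) and 9 with U, and all 5 had a site of both. The Nrcam site, in a gene for a neural adhesion molecule, was rank 171 of the T list and, with 33 fragments, rank 35 of the U list. Ribosomal protein genes had 1 of 20 with T and 4 with U, and silent tissue-restricted genes 0 of 12 with T and 2 with U. The ribosomal counts lay near the shares of all genes. Of 17 markers of other cell types, Col1a1, a fibroblast collagen gene, had a site of both, 2301 bp outside the gene, with 19 T and 12 U fragments.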

How the data were processed

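CUT&RUN peak lists were used as deposited, per the labels' protocols made with the Epicypher kit. Bowtie2, FastQC, MACS2 and MultiQC on mm10 are named in the submitters' processing notes; versions, settings and the caller's control are not stated there. Every deposited peak carries a score, a fold enrichment (ratio), −log10 p and −log10 q, all values of the authors, and a summit.

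Overlap means at least 1 bp. Shares carry Wilson 95% intervals. Intervals of medians come from order statistics. Gene positions, 21900 protein-coding genes, come from the GRCm38.p6 RefSeq table, and promoters from the RefSeq promoter table of that build. Summit fragments and depth were rebuilt from the deposited fold enrichment and p-values, assuming MACS2 defaults (pseudocount 1) since the settings are unknown, with a genome size of 1870000000 bp and the shortest peak (164 bp for T, 144 bp for U) as fragment length; they were recovered for 99.5% of T and 99.98% of U peaks. For thinning, T fragments and background were scaled to the depth of U and peaks under the lowest U −log10 p dropped. Overlap and depth steps were tested on simulated data.

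Named were the 10 highest shared, T-only and U-only sites, the 10 highest gene ends with both antibodies, and list genes with a peak within 20 kb, those on which the text turns given with values; others are said to be chosen after their values were seen. Some list genes are not reported by name here. The members and the 9 gene lists were chosen with earlier results of these data known. Software was SciPy 1.17.1, pandas 2.3.3, Matplotlib 3.10.9 and NumPy 2.4.6 under Python 3.11.15.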

Additional observations from a re-analysis of the deposited data

How the results depend on the processing

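Each antibody had 1 library, so depth and antibody cannot be told apart. No paired analysis was possible because there was 1 library per antibody; no replicate could be left out. Of 119 recomputed values, 60 stayed within the counting interval of the reported value, or within 1.5 times a count, and 59 moved. Unless a reason is given, the cause was not tested.

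Under a reciprocal overlap of at least 50%, 65.1% of T peaks and 11.9% of U peaks were shared. It is stricter by construction. With this rule applied to the other libraries, the shares of T-only peaks with H3K4me3, ARID1A, Menin, UTX, TFAP2A and TFAP2B became 2.63%, 21.6%, 10.5%, 43.7%, 31.1% and 26.3%. Those of U-only peaks became 1.04%, 38.0%, 6.56%, 42.1%, 23.3% and 14.0%, and those of shared U peaks 2.87%, 65.5%, 12.7%, 74.8%, 44.2% and 28.0%. With this rule for H3K4me3, few peaks of any class qualified. The rule depends on peak width, so it cannot tell whether the T-only share is above that of shared U peaks. With the summit inside a peak of the other list, 80.3% of T and 13.8% of U peaks were shared. With equal numbers of top peaks, 47.3% of each list were. Peaks within 500 bp, T thinned to the depth of U, regions of at least 15 libraries left out and main chromosomes only kept both shares within their intervals.

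With −log10 q of at least 5 in both lists, which leaves fewer peaks, the median summit distance was 36.5 bp. Gene-end shares were 11.9% of T, 8.74% of U, 8.78% of U-only and 8.55% of shared U peaks, and the genes with T, U and both at a gene end numbered 141, 474 and 81. UTX then overlapped 78.0% of T-only and 61.3% of U-only peaks, and U-only peaks had H3K4me3 at 12.8%, ARID1A at 74.4%, Menin at 18.97% and TFAP2A at 46.9%. With gene ends widened to 2.5 kb, which adds positions by construction, the shares were 19.4% of T, 15.7% of U, 15.7% of U-only and 15.6% of shared U peaks. Without regions called in at least 15 libraries, 8.83% of shared U peaks lay at a gene end. Without BRD9 sites, an alternative chosen after the data were seen, 85.8% of T peaks were shared, and T-only peaks had H3K4me3 at 47.1%, ARID1A at 75.2% and TFAP2B at 43.3%. The T-only share at gene ends stayed within its interval under every alternative run for it, from 30.8% to 40.1%.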
